A study of Mus musculus with 2 samples.

Results

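The 10 genes followed here are ones whose proteins are stained on the cell surface to sort fibroblasts and related mesenchymal cells, measured by single-cell RNA-seq in adult mouse muscle: Ly6a, Cd34, Thy1, Eng, Dpp4, Cd55, Nt5e, Mme, Ly6c1 and Vcam1. They were taken by symbol from the deposited matrices, where all 10 are listed among 28001 features, and no measured value entered that choice. The cells were tdTomato+ cells of C57BL/6J Hic1CreERT2/CreERT2;Rosa26LSLtdTomato/tdTomato mice, in which tamoxifen (TAM) lets a Cre made from the Hic1 locus switch on a permanent tdTomato reporter, so that cells with active Hic1 when TAM was given are marked together with their descendants. Both alleles are homozygous in both groups. In the E10-P56 library, pregnant dams received 7.5 mg of TAM by gavage at embryonic day 10 and muscle of the offspring was taken at postnatal day 56. For tracing into adulthood, the methods add progesterone to the TAM, delivery by caesarean section and cross-fostering. In the adult pulse library, mice of 8 weeks received 5 daily injections of 2.5 mg. The labels give day 56 as the collection day for this library too, while the study describes a later collection. For muscle taken at P56, the methods describe pooled tibialis anterior muscles. They give a sort for tdTomato+ cells that excluded endothelial, erythroid, leukocyte, myeloid and CD117+ cells, run a second time before capture. The study cites earlier work for its adult pulse data, so these steps may not all hold for that library. There is 1 library per labelling time, so labelling time with its treatments, library, age at collection and software version cannot be told apart. No replicate check exists and no test was possible.

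Sorting of muscle fibroblasts rests on a few surface proteins. Ly6a encodes Sca-1 and Ly6c1 a relative of it, both small proteins held on the membrane by a lipid anchor, and Cd34 encodes a sialomucin; Sca-1 and CD34 are the usual positive markers of fibro-adipogenic progenitors, which are also defined by Pdgfra. Dpp4 (CD26) and Mme (neprilysin, CD10) encode membrane peptidases, Nt5e (CD73) the enzyme that makes adenosine from AMP outside the cell, and Cd55 a protein that protects cells from complement. Thy1 (CD90) and Vcam1 encode adhesion proteins of the immunoglobulin family, and Eng (CD105, endoglin) a co-receptor for ligands of the TGF-β family. Dpp4 is best known in fibroblasts as a marker of the Pi16+ population that lies in fascia and around vessels. Transcript levels need not follow protein on the surface, which was not measured in these files.

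After removal of barcodes under 1500 unique molecular identifiers (UMIs) or over 10% mitochondrial UMIs, 6087 of 8236 E10-P56 barcodes and 8567 of 9195 adult pulse barcodes were kept, with medians of 7648 and 7344 UMIs, and 15 barcodes occur in both libraries. Clusters, built without the 10 genes, were named from fixed marker lists. Fibroblast-like cells were the largest class, 4057 and 7065 in the same order of libraries, or 72.2% and 83.6% of the named cells. The other named cells were tenocyte-like (211 and 561), the mural pericyte-like (433 and 397), SMCP-like (smooth muscle cell progenitor, 263 and 140) and vascular smooth muscle cell (VSMC)-like (228 and 25) cells, the nerve-sheath perineurial-like (177 and 36), endoneurial-like (48 and 143) and Schwann-like (140 and 21) cells, and osteochondral-like cells (60 and 68). Endothelial-like cells (20 and 53) and cycling cells (267 and 28) were set aside. Different clusters held the fibroblast-like cells of each library: one led by Smoc2 and Lrrtm3 had 34 E10-P56 and 2414 adult pulse cells, and one led by Dmkn and Krtdap had 1594 and 20. Levels are given as CPM, the UMIs of a gene over all UMIs of a population scaled to 1e6, with their exact 95% Poisson interval. Shares are of cells with at least 1 UMI of a gene after each cell was thinned to 1500 UMIs, with exact 95% Clopper-Pearson intervals. Both intervals cover counting error only. Of the genes of the sort's exclusion gate, Ptprc (CD45) had 0 and 5 UMIs in fibroblast-like cells, Pecam1 (CD31) 23 and 577, while Kit (CD117) was at 20.7 and 17.2 CPM in SMCP-like cells.

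**Figure D1:**
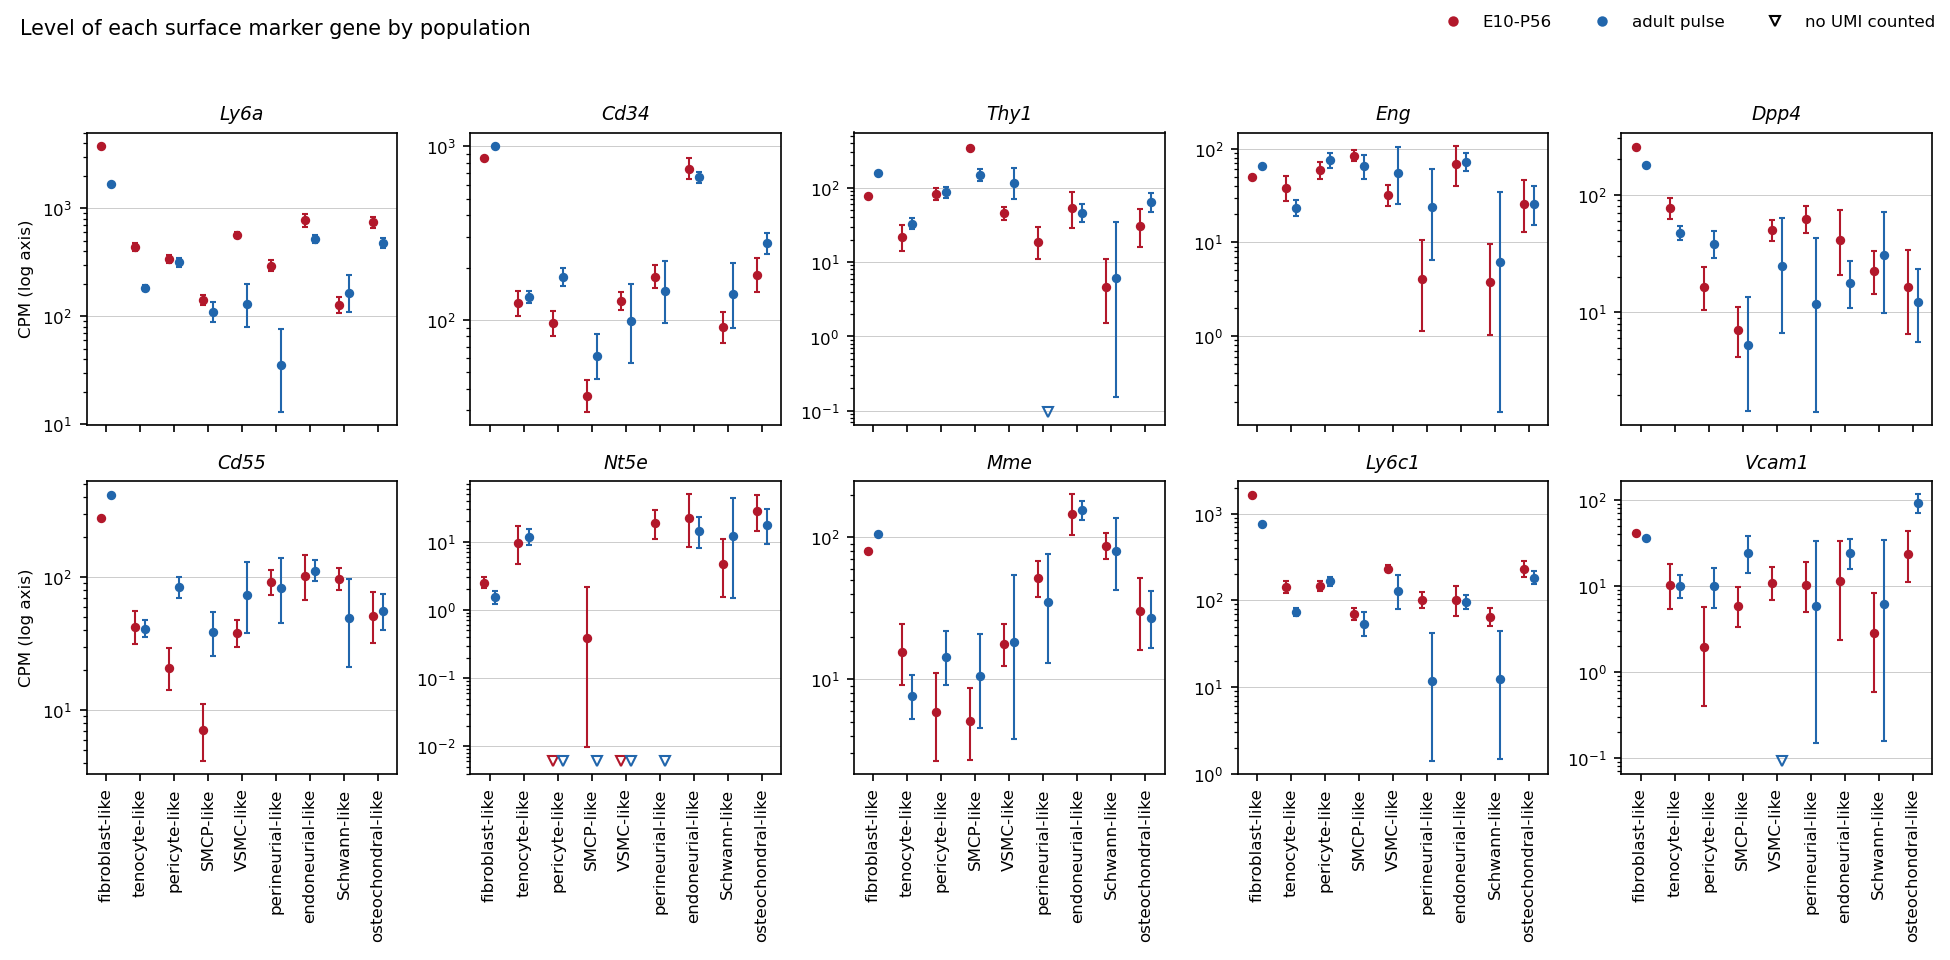
Level in CPM (log axis) of each of the 10 genes in the fibroblast-like and the 8 other named populations of E10-P56 (red) and the adult pulse (blue); bars are exact 95% Poisson intervals and open triangles mark populations with no UMI of the gene. Ly6a, Ly6c1, Dpp4 and Cd55 were at least 2 times higher in fibroblast-like cells than in each of these 8 populations of both libraries. Endothelial-like cells are not shown. Thy1 reached 342 CPM in SMCP-like cells of E10-P56 against 76.2 in fibroblast-like cells.

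A set of 4 genes stood at least 2 times above every other population compared in fibroblast-like cells, Ly6a, Ly6c1, Dpp4 and Cd55. They were the same 4 in both libraries, but the interval of the Cd55 ratio in E10-P56 reached down to 1.87. Endothelial-like cells, set aside above, were not compared, and in the adult pulse they held more Ly6a and Ly6c1 than fibroblast-like cells did. Of all genes with at least 100 UMIs in the library, 1.8% met the 2-fold rule in E10-P56, and 1.29% did in the adult pulse. None of the 10 was at least 2 times below every other population, which 0.412% and 0.124% of all genes were. For each of the remaining 6, at least 1 other population of each library was within 2-fold of fibroblast-like cells or above them. The count of 4 held only where whole clusters were named: it was 0 of 10 in each library when every cell was named from its own marker counts, and 3 and 2 when clusters were cut at a resolution of 1.0.

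Ly6a (chr15:74994877-74998031, GRCm38, minus strand) was at 3774 CPM (3756 to 3792) in E10-P56 fibroblast-like cells and at 1660 CPM (1650 to 1671) in adult pulse ones. Among the others of E10-P56, endoneurial-like cells came next with 771 CPM (669 to 884) and osteochondral-like cells with 740 CPM (661 to 826), which did not differ beyond their intervals. VSMC-like cells followed at 564 CPM, tenocyte-like cells at 439, pericyte-like cells at 336, perineurial-like cells at 294, SMCP-like cells at 140 and Schwann-like cells at 126. Endoneurial-like cells were also second in the adult pulse, at 516 CPM (475 to 560), again within the interval of osteochondral-like cells at 476 CPM (427 to 528), and the others lay between 35.3 and 316 CPM. The level in fibroblast-like cells was thus 4.90 times (4.27 to 5.64) and 3.22 times (2.96 to 3.5) that of endoneurial-like cells. At 1500 UMIs per cell, 91.8% (90.9 to 92.6) and 79.5% (78.5 to 80.4) of fibroblast-like cells were positive, and 98.2% and 95.8% before thinning. Endothelial-like cells, which the gate described above was meant to remove and which remained as 20 and 53 cells, carried Ly6a at 1778 and 2261 CPM.

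Ly6c1 (chr15:75044018-75048830, minus strand) lies on the same chromosome as Ly6a and had the same order of fibroblast-like cells over the rest. It was at 1656 CPM (1643 to 1668) and 757 CPM (750 to 764) in fibroblast-like cells. In E10-P56 the next were VSMC-like cells, at 231 CPM (211 to 253), and osteochondral-like cells, at 231 CPM (188 to 281). In the adult pulse they were osteochondral-like cells, at 182 CPM (153 to 216), and pericyte-like cells, at 167 CPM (147 to 189). The ratio to the highest other population was 7.16 (6.53 to 7.85) and 4.15 (3.5 to 4.95). Unlike Ly6a, it was low in endoneurial-like cells, at 102 and 95.9 CPM. Its highest level was in endothelial-like cells of the adult pulse, at 2835 CPM, with 1718 CPM in those of E10-P56. Of the 50-base words in the last 400 bases of its transcript, 23.4% are also found in Ly6c2, so reads from that part could have been discarded or misplaced; none of the words of the other 9 genes was shared. Ly6c2 itself had 21 and 59 UMIs in fibroblast-like cells.

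Cd34 (chr1:194938819-194961279, plus strand) did not single out fibroblasts from the endoneurium. Fibroblast-like cells were at 858 CPM (849 to 867) and endoneurial-like cells at 744 CPM (644 to 856) for E10-P56, a ratio of 1.15 (1.0 to 1.33). The adult pulse had 999 CPM (991 to 1007) and 662 CPM (615 to 711) there, a ratio of 1.51 (1.40 to 1.63). All other populations were far lower, from 36.4 CPM in SMCP-like to 182 in osteochondral-like cells of E10-P56, and from 62.1 to 277 in the same populations of the adult pulse. Positive cells made up 67.5% and 69.9% of fibroblast-like and 59.7% and 59.0% of endoneurial-like cells, against 8.57% and 9.08% of pericyte-like cells.

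Dpp4 (chr2:62330073-62412231, minus strand) was at 254 CPM (250 to 259) and 177 CPM (173 to 180) in fibroblast-like cells. Tenocyte-like cells were next, at 76.5 CPM (61.4 to 94.1) and 47.2 CPM (41.0 to 54.2), and their intervals met those of perineurial-like cells in E10-P56, at 61.5 CPM, and of pericyte-like cells in the adult pulse, at 38.1 CPM. Cd55 (chr1:130439027-130462744, minus strand) was at 276 CPM (272 to 282) and 413 CPM (407 to 418) in fibroblast-like cells. The 3 nerve-sheath populations followed it in E10-P56 with overlapping intervals, endoneurial-like cells at 102 CPM, Schwann-like cells at 97.3 and perineurial-like cells at 91.3. Adult pulse endoneurial-like cells were at 112 CPM and pericyte-like cells at 84.1. The ratio of Cd55 to endoneurial-like cells was 2.72 (1.87 to 4.13) in E10-P56, where those cells had 27 UMIs. It was 3.69 (3.09 to 4.43) in the adult pulse. At equal depth both genes marked a minority of fibroblast-like cells, 26.2% and 18.8% for Dpp4 and 29.5% and 33.5% for Cd55.

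The other membrane peptidase went the other way. Mme (chr3:63241537-63386030, plus strand) was highest in endoneurial-like cells of both libraries, at 147 CPM (104 to 200) and 155 CPM (132 to 179), and fibroblast-like cells were at 79.5 CPM (76.8 to 82.2) and 105 CPM (102 to 108). Schwann-like cells, at 87.0 CPM (70.2 to 107) and 79.6 CPM (42.4 to 136), could not be told from fibroblast-like cells. Tenocyte-like and mural cells were at 5.09 to 18.4 CPM. Nt5e (chr9:88327197-88372092, plus strand) was nearly absent from fibroblast-like cells, with 108 and 89 UMIs in all, or 2.51 CPM (2.06 to 3.03) and 1.53 CPM (1.23 to 1.88). Osteochondral-like cells had 28.0 and 17.6 CPM, from only 12 and 13 UMIs. Endoneurial-like cells followed with 22.6 and 14.2 CPM, from 6 and 16 UMIs. Perineurial-like cells had 18.5 CPM from 18 UMIs in E10-P56 but 0 UMIs in the adult pulse. Tenocyte-like cells had 9.46 and 11.8 CPM, also above fibroblast-like cells in both libraries. Pericyte-like cells had 0 UMIs in both, which allows up to 1.95 and 1.97 CPM at a limit of 3 counts.

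Thy1 (chr9:44043384-44048579, plus strand) did not keep its place between the libraries. In E10-P56 SMCP-like cells led at 342 CPM (320 to 365), and fibroblast-like cells, at 76.2 CPM (73.6 to 78.9), did not differ from pericyte-like cells, at 81.9 CPM (68.2 to 97.5). In the adult pulse fibroblast-like cells were at 156 CPM (153 to 160), within the interval of SMCP-like cells, at 149 CPM (123 to 180), and of VSMC-like cells, at 117 CPM (70.3 to 182). Schwann-like cells had 4.68 and 6.12 CPM. Eng (chr2:32646595-32682669, plus strand) was likewise shared with mural and endoneurial-like cells. SMCP-like cells of E10-P56 were at 83.7 CPM (72.9 to 95.7), endoneurial-like cells at 67.7, pericyte-like cells at 58.5 and fibroblast-like cells at 49.9 CPM (47.8 to 52.1). In the adult pulse the order was pericyte-like, endoneurial-like, fibroblast-like and SMCP-like cells, at 74.9, 71.9, 64.8 and 64.7 CPM, with intervals that all overlapped. Perineurial-like and Schwann-like cells of E10-P56 were near the bottom, at 4.10 and 3.74 CPM. Endothelial-like cells were far above all of these, at 532 and 551 CPM.

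Vcam1 (chr3:116109949-116129688, minus strand) was at 41.0 CPM (39.1 to 43.0) and 35.7 CPM (34.2 to 37.3) in fibroblast-like cells. Osteochondral-like cells were second in E10-P56, at 23.3 CPM (11.2 to 42.9) from 10 UMIs, and first in the adult pulse, at 90.5 CPM (70.2 to 115) from 67 UMIs. The mural populations had 1.95 to 10.9 CPM in E10-P56, and SMCP-like cells of the adult pulse 23.8 CPM.

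Free RNA in the droplets gives cells UMIs of genes they do not express, and fibroblasts were the most numerous cells. The 5 fibroblast transcripts Dpt, Clec3b, Mfap5, Pi16 and Dpep1 were therefore measured in the same way. They are also among the markers that named the fibroblast-like clusters, so their ranges are not independent of the naming. In pericyte-like cells they stood at 4.71% to 10.8% of their fibroblast-like level in E10-P56 and at 15.2% to 18.4% in the adult pulse. Ly6a stood at 8.90% and 19.0% there and Cd34 at 11.1% and 17.7%, in or near those ranges, so their values in pericyte-like cells cannot be told from free RNA. Ly6c1 stood at 8.87%, inside the E10-P56 range, and at 22.0%, above that of the adult pulse. The part of free RNA in the latter was not tested. In SMCP-like cells of E10-P56 the 5 transcripts were at 3.20% to 6.86%, with Ly6a at 3.72% and Cd34 at 4.24%. Thy1 was at 449% and Eng at 168% in those cells, far above that range. Dpp4 in tenocyte-like cells stood at 30.1% and 26.7%, above the ranges of 9.61% to 18.8% and 9.84% to 16.0%. In endoneurial-like cells the 5 transcripts ranged from 9.72% to 96.4% in E10-P56 and from 17.9% to 89.2% in the adult pulse. Ly6a stood at 20.4% and 31.1% there, inside both ranges, which are too wide to serve as a scale. Ly6c1, at 6.13% and 12.7%, was below them. In E10-P56 the 5 were at 7.51% to 84.4% in perineurial-like and 3.08% to 31.5% in Schwann-like cells. Their medians were 10.1% and 6.04%, with Ly6a at 7.80% and 3.35%. The part of free RNA in the nerve-sheath values was not tested.

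Every combination of up to 3 genes, each required present or absent and at least 1 present, gave 985 gates. For each, the separation was the share of fibroblast-like cells it took, less the highest share in any other named population, in percentage points. The best gate of one library was read in the other. Ly6a+ Nt5e- was best in the adult pulse, and it took 91.5% (90.6 to 92.3) of fibroblast-like cells against 42.5% (28.4 to 57.6) of endoneurial-like cells of E10-P56, a separation of 49.0 points and 13th of 985. Ly6a+ Ly6c1+ was best in E10-P56, and it took 47.7% (46.5 to 48.8) against 9.34% (3.63 to 18.9) of osteochondral-like cells of the adult pulse, a separation of 38.3 points and 14th of 985. In the library where each had been chosen, they reached 43.5 and 57.5 points. The absence of Nt5e did little, since Ly6a+ alone gave 48.5 and 43.1 points. These values rested on whole clusters being named: with every cell named from its own markers, other gates were chosen, and Cd34+ Nt5e- Vcam1- gave 0.377 points in E10-P56 and Ly6a+ Cd34+ Vcam1- gave -1.97 in the adult pulse.

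**Figure D2:**
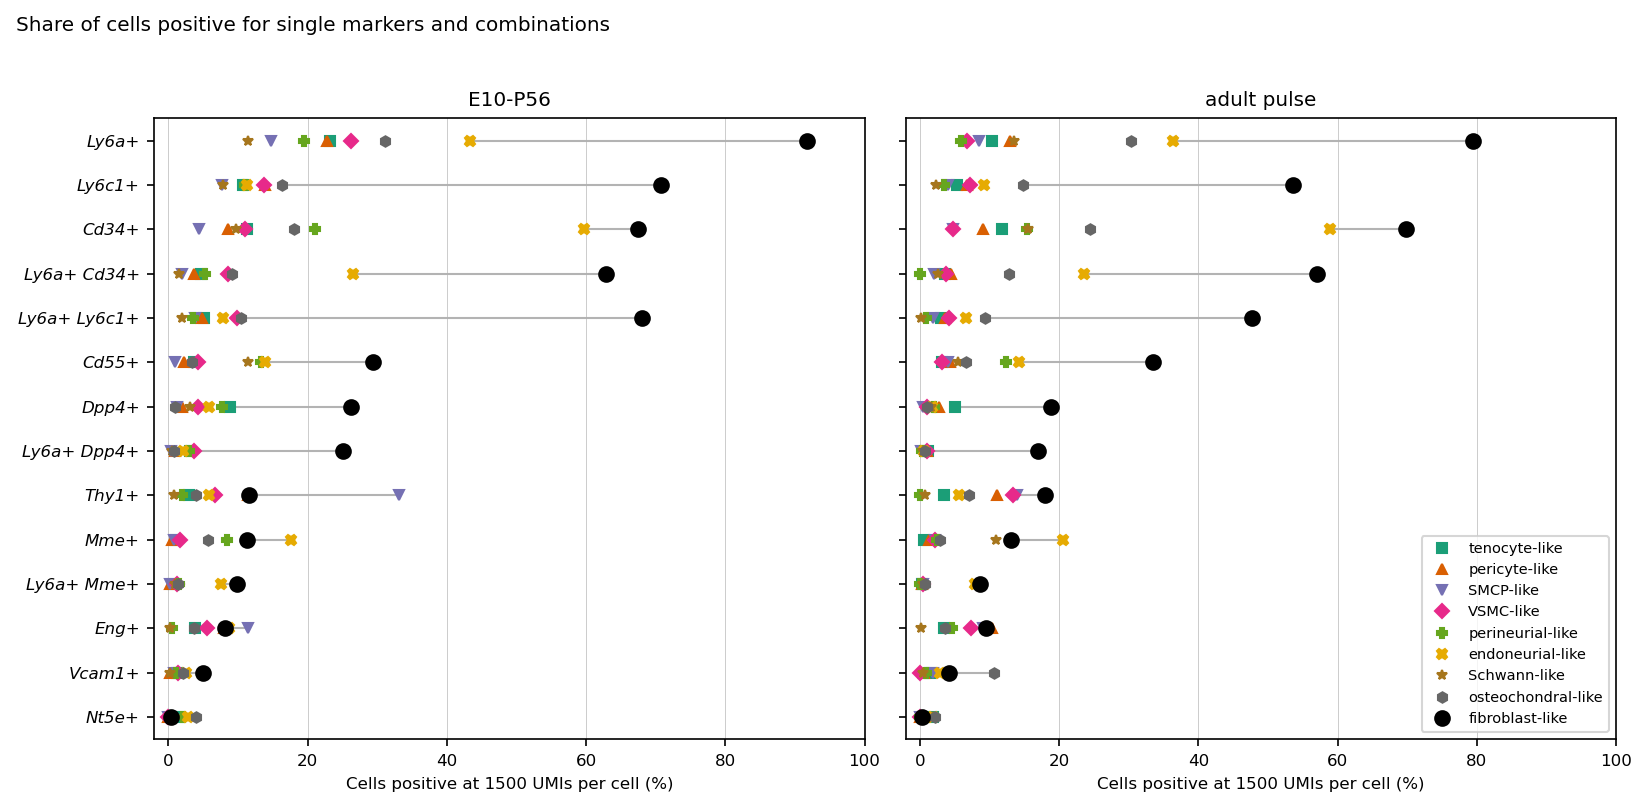
Share of cells (%) positive at 1500 UMIs per cell for the 10 single genes and 4 combinations, in fibroblast-like cells (black) and in each of the 8 other populations (coloured symbols) of each library; the grey line runs from fibroblast-like cells to the highest other population. Ly6a+ took 91.8% and 79.5% of fibroblast-like cells but 43.3% and 36.4% of endoneurial-like cells, and Ly6a+ Ly6c1+ took 7.81% and 6.57% of the latter.

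Which gate did best depended on the neighbour to be left out. Against tendon, Ly6a+ alone was the best of the 985 in both libraries: it took 23.2% and 10.4% of tenocyte-like cells, a separation of 68.5 and 69.1 points. Against mural cells it was again the best in both, at 65.6 and 66.6 points. VSMC-like cells set the limit in E10-P56, with 26.2% positive, and pericyte-like cells in the adult pulse, with 12.9%. Ly6a in tenocyte-like and pericyte-like cells, and in VSMC-like cells of E10-P56, lay in or near the free-RNA ranges given above. The part of free RNA in these tendon and mural shares was not tested. Against the nerve sheath Ly6a+ fell to 48.5 and 43.1 points, with endoneurial-like cells setting the limit. There Ly6c1+ gave 59.4 and 44.3 points and Ly6a+ Ly6c1+ 60.2 and 41.1 points. The endoneurial-like cells taken by Ly6a+, 43.3% (29.1 to 58.4) and 36.4% (28.6 to 44.9), have intervals wider than the differences between these 3 gates in each library, and Ly6a+ Ly6c1+ was below Ly6a+ alone in the adult pulse. Cd34+ gave 7.83 and 10.9 points against the nerve sheath but 56.2 and 58.1 against tendon and 56.5 and 60.8 against mural cells. The classic pair Ly6a+ Cd34+ took 62.8% and 57.1% of fibroblast-like cells and 26.6% and 23.6% of endoneurial-like cells, 36.3 and 33.5 points. Adding Ly6c1 to that pair cut endoneurial-like cells to 6.35% and 4.37%, and fibroblast-like cells to 47.8% and 35.6%.

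Purity, in which endothelial-like cells are not counted, moved differently from separation. Of all named cells taken by Ly6a+, 91.7% were fibroblast-like in E10-P56, as were 96.6% in the adult pulse, starting from the 72.2% and 83.6% given above. The values were 96.9% and 97.9% for Ly6a+ Cd34+ and 97.1% and 98.5% for Ly6a+ Ly6c1+. Ly6a+ Dpp4+ reached 97.4% and 98.9%, but took only 25.1% and 17.0% of fibroblast-like cells. Thy1+ cells were 73.7% fibroblast-like in E10-P56, near the share of all named cells, and 92.7% in the adult pulse. As single gates, Thy1+ separated fibroblast-like cells by -21.5 and 4.04 points, Eng+ by -3.29 and -0.804, Mme+ by -6.28 and -7.46, Nt5e+ by -3.61 and -1.96 and Vcam1+ by 2.48 and -6.44. Below 0, another population had a higher share of positive cells than fibroblast-like cells did.

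Within single fibroblast-like cells at 1500 UMIs, a median of 3 of the 10 genes was seen in both libraries. None of the 10 was seen in 1.19% and 2.72% of cells, and 3.52% and 7.77% had neither Ly6a nor Cd34. Ly6a and Cd34 were found together in 62.8% and 57.1%, close to the 62.0% and 55.5% that the product of their shares gives. Dpp4 and Cd55 were together in 11.1% and 10.4% of cells, above products of 7.73% and 6.31%. Dpp4 and Mme were together in 1.78% and 1.15%, below products of 2.97% and 2.47%.

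Fibroblast-like cells were clustered again, without the 10 genes and with each gene centred within its library. Pi16-type cells (1062 E10-P56 and 2653 adult pulse cells) and Col15a1-type cells (1005 and 2476), the kinds known from many tissues, and Clu/Meox1-type cells (328 and 739) were named from fixed markers. A further 3 subclusters stayed unnamed, led by Cfd and Car3 (714 and 614), with the adipocyte genes Fabp4 and Adipoq among their 10 leading genes, by Fmo2 (260 and 546) and by Il1rl1 and Cxcl5 (688 and 37). The last was almost all E10-P56 and deep, with a median of 14988 UMIs. A subcluster of 96 and 12 cells led by the satellite cell genes Pax7 and Chodl was left out, although only 8.33% of its E10-P56 cells had a UMI of Pax7 and 90.6% had one of the fibroblast gene Dpt.

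The 10 genes split the Pi16-type from the Col15a1-type cells in a like way in both libraries. Dpp4, Cd55 and Ly6c1 were at least 2 times higher in Pi16-type cells of both, and Ly6a of the adult pulse, which is 3 and 4 of the 9 genes with enough UMIs. Eng, Mme and Vcam1 were at least 2 times higher in Col15a1-type cells of both, 3 of 9. Among all genes with at least 100 UMIs, 3.93% and 5.31% were higher in Pi16-type and 4.8% and 6.5% in Col15a1-type cells, 8.73% and 11.8% in all. At 3-fold the total fell from 6 to 3 in E10-P56 and from 7 to 4 in the adult pulse.

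Dpp4 was at 444 CPM (430 to 458) in Pi16-type and 121 CPM (113 to 129) in Col15a1-type cells of E10-P56, 3.68 times (3.43 to 3.96). Adult pulse levels were 368 CPM (360 to 376) and 57.4 CPM (54.0 to 60.9), 6.42 times (6.02 to 6.84). Cd55 was at 579 and 210 CPM in E10-P56, 2.75 times (2.60 to 2.91), and at 810 and 189 CPM in the adult pulse, 4.28 times (4.13 to 4.44). Mme was the sharpest in the opposite direction. It was at 33.0 CPM (29.4 to 37.0) in Pi16-type and 234 CPM (224 to 245) in Col15a1-type cells of E10-P56, and at 26.4 CPM (24.3 to 28.6) and 247 CPM (240 to 254) in the adult pulse. Eng was at 44.2 against 103 CPM and 39.4 against 111 CPM, and Vcam1 at 8.89 against 30.9 CPM and 9.92 against 29.2 CPM. Ly6a was higher in Pi16-type cells by 1.84 times (1.81 to 1.88) and 2.13 times (2.10 to 2.17), on either side of the 2-fold line, and Cd34 by only 1.09 and 1.47 times. Nt5e had 32 and 3 UMIs in these 2 kinds in E10-P56 and 68 and 4 in the adult pulse, too few for the count.

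**Figure D3:**
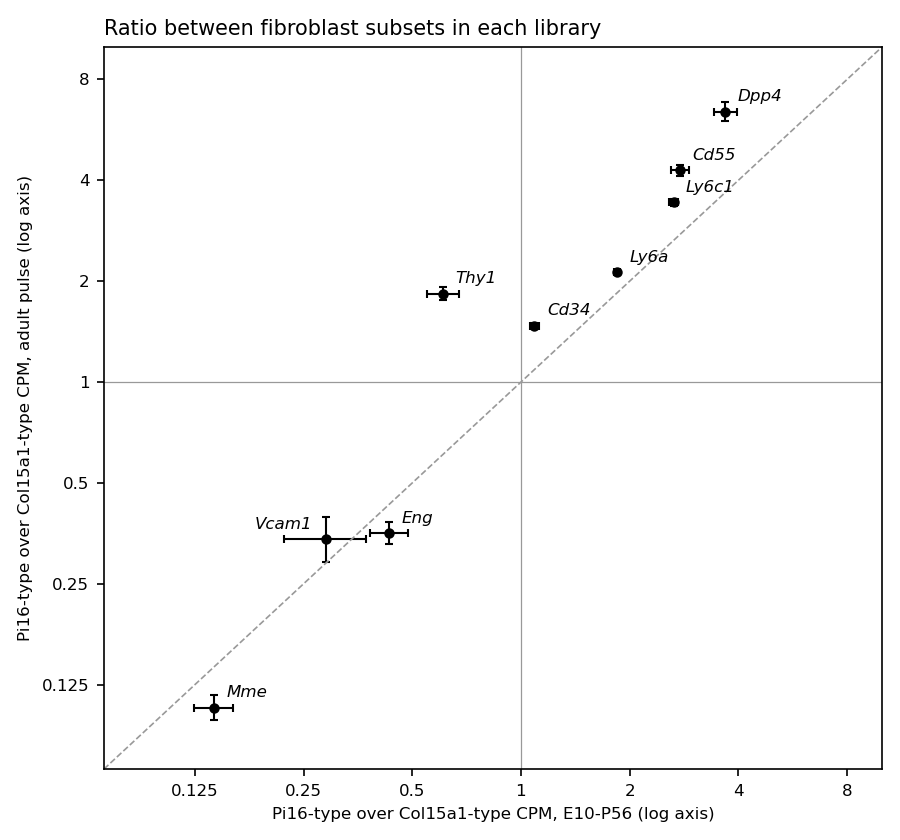
Ratio of the level in Pi16-type to that in Col15a1-type cells, in E10-P56 (x) and the adult pulse (y), both axes logarithmic, with 95% counting intervals; the dashed line marks equal ratios and Nt5e is left out for its few UMIs. All but 1 of the 9 genes lean to the same kind in both libraries, while Thy1 is at 0.609 in E10-P56 but 1.84 in the adult pulse.

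Thy1 was the exception. It was lower in Pi16-type than in Col15a1-type cells of E10-P56, at 70.1 CPM (64.8 to 75.8) against 115 CPM (108 to 123), and higher in the adult pulse, at 238 CPM (232 to 245) against 130 CPM (125 to 135). Neither difference reached 2-fold. Of the 2 Pi16-type subclusters, only the one led by Smpd3 and Krtdap turned, with 39.0 CPM in E10-P56 but 181 in the adult pulse. The one led by Fam167a was above Col15a1-type cells in both libraries, at 134 and 295 CPM. The mix of the 2 also differed, with 781 and 281 cells for E10-P56 and 1446 and 1207 for the adult pulse. Thy1 was at 44.6 and 43.8 CPM in Clu/Meox1-type and 90.1 and 93.9 CPM in Cfd and Car3-led cells, and in the Il1rl1 and Cxcl5-led cells at 53.0 and 84.8 CPM.

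**Figure D4:**
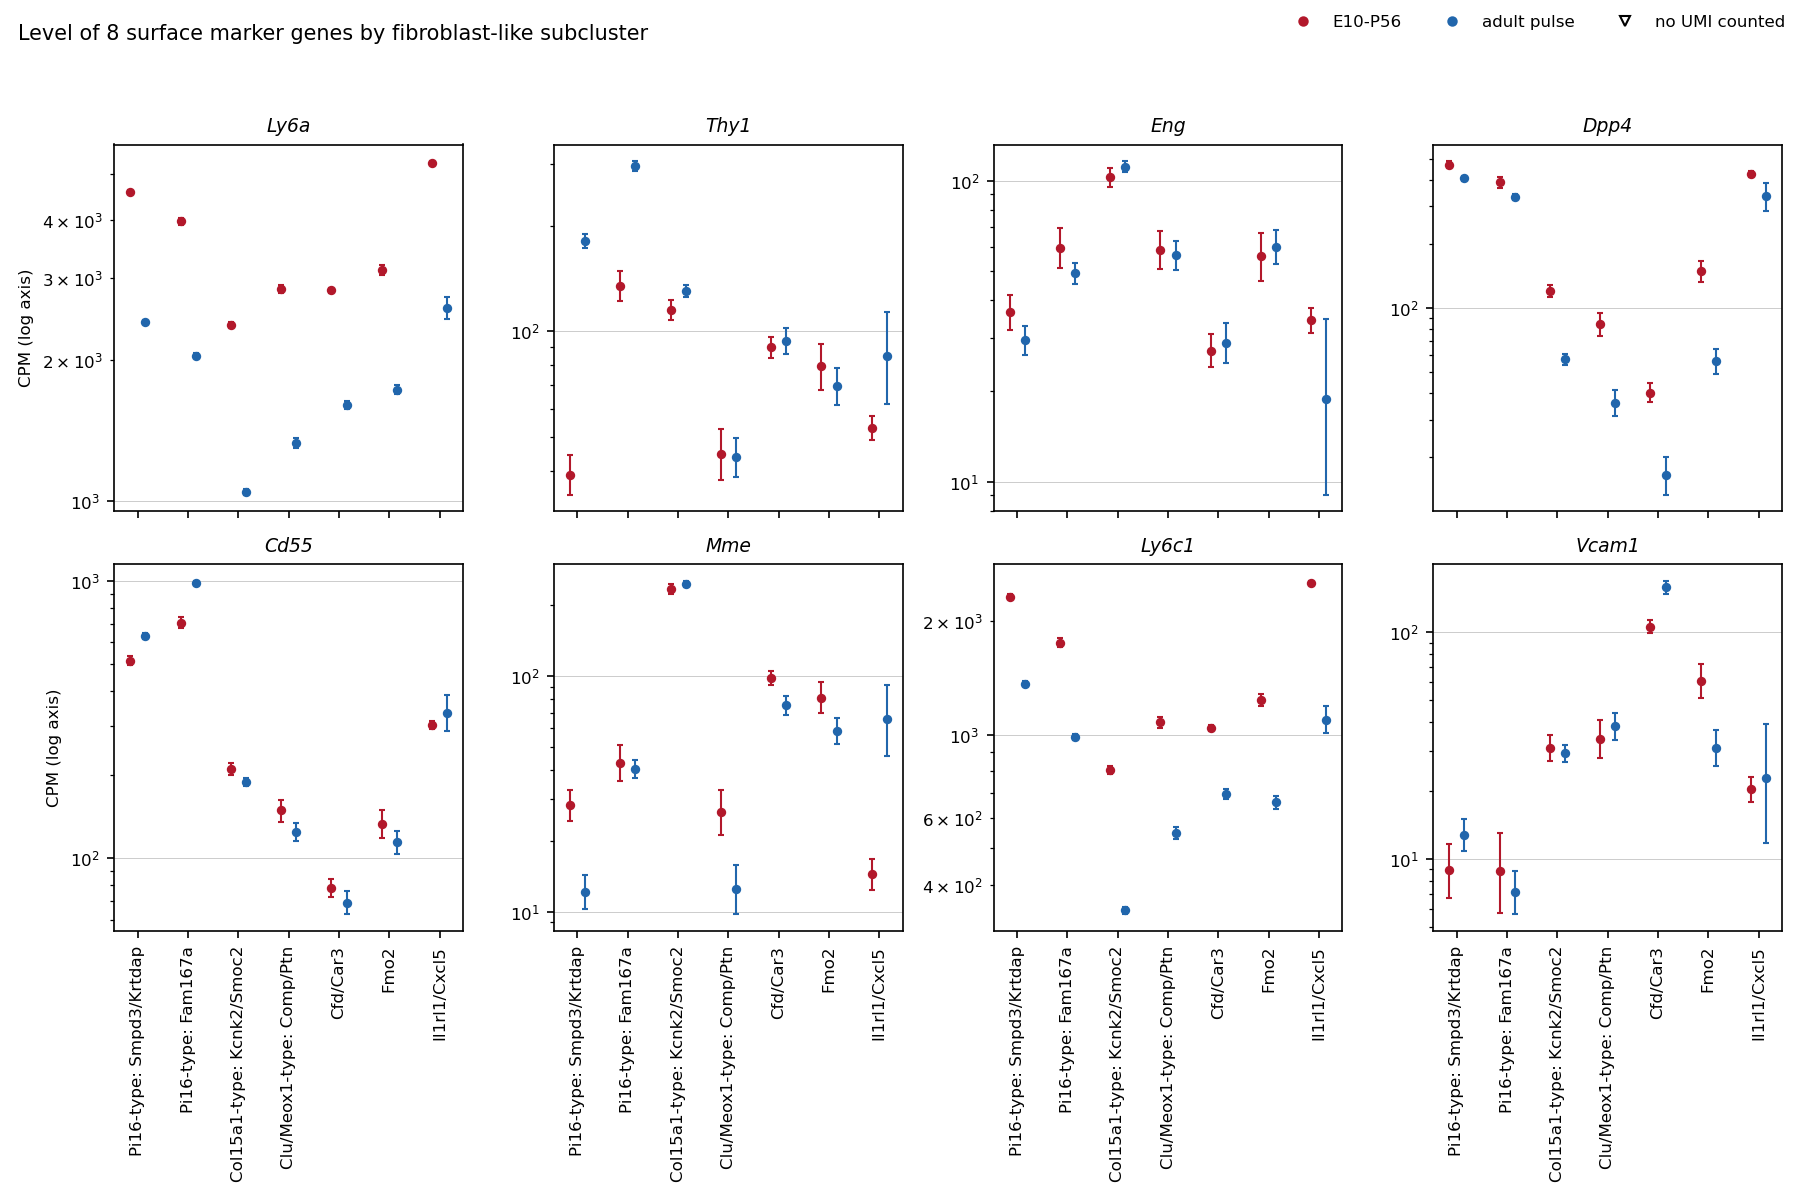
Level in CPM (log axis) of 8 of the genes in the 7 fibroblast-like subclusters of E10-P56 (red) and the adult pulse (blue), with exact 95% Poisson intervals. Mme and Eng peak in the Col15a1-type subcluster, Vcam1 in the Cfd and Car3-led one (106 and 158 CPM), and Dpp4 is high in both Pi16-type subclusters and in the Il1rl1 and Cxcl5-led cells (425 and 334 CPM).

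The remaining subclusters had their own pattern. Vcam1 was highest in the Cfd and Car3-led cells, at 106 CPM (99.4 to 113) and 158 CPM (148 to 169), and these cells had the least Cd55, 78.1 and 69.3 CPM, and the least Dpp4, 40.1 and 16.4 CPM. The Il1rl1 and Cxcl5-led cells had the most Ly6a in both libraries, at 5295 and 2587 CPM, and Dpp4 at 425 and 334 CPM. Clu/Meox1-type cells had little Mme, 26.6 and 12.5 CPM, together with little Thy1. Low Mme was shared with the Pi16-type subcluster led by Smpd3 and Krtdap, at 28.2 and 12.2 CPM. The Il1rl1 and Cxcl5-led cells had 14.4 CPM of it in E10-P56 but 65.9 in the adult pulse. Clu/Meox1-type cells were also low in Dpp4, at 83.9 and 35.8 CPM.

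As gates for the fibroblast kinds, the 10 genes were first set against the non-fibroblast populations alone. Ly6a+ Ly6c1+ was then best for the Pi16-type in both libraries. It took 83.9% (81.5 to 86.1) and 71.6% (69.9 to 73.4) of them, 73.4 and 62.3 points above the highest non-fibroblast population. For Col15a1-type cells it was Ly6a+ Nt5e-, which took 86.9% and 66.5%, 44.4 and 30.8 points above. The separations that follow also count the other named fibroblast kinds, but not the 3 unnamed subclusters. Each gate is set beside the unnamed subcluster or subclusters of which it took most, and not always beside all 3. For Pi16-type cells Dpp4+ Mme- was best in E10-P56, where it took 44.4% of them and 11.4% of Col15a1-type cells, 33.0 points. In the adult pulse it gave 33.7 points, with 39.1% and 5.33%. This gate did not tell Pi16-type from Il1rl1 and Cxcl5-led cells, of which it took 45.9% (42.2 to 49.7) and 35.1% (20.2 to 52.5). These unnamed cells were themselves rich in Pi16, at 2192 and 1873 CPM. Pi16-type cells had 3277 and 2962 CPM of it, and Col15a1-type cells 215 and 478 CPM. Of the 2 Pi16-type subclusters, the one led by Smpd3 and Krtdap had 4219 and 3750 CPM. The one led by Fam167a had 1334 and 2189 CPM, which in E10-P56 is below the unnamed cells. Cd55+ Mme- was best in the adult pulse, at 42.3 points, and gave 29.9 points in E10-P56. It took 49.2% and 58.1% of Pi16-type cells, against 33.5% and 34.2% of the Il1rl1 and Cxcl5-led cells. For Col15a1-type cells the best adult pulse gate, Ly6a+ Mme+, took 23.3% of them in E10-P56 but 17.8% in the adult pulse. The next named population was endoneurial-like cells in both, at 7.60% and 7.90%, which left 15.7 and 9.85 points, while the Cfd and Car3-led cells lay only 12.3 and 9.46 points below. For Clu/Meox1-type cells Ly6a+ Cd55- Mme- was first in both libraries, with 70.1% and 61.0% of them and separations of 23.7 and 24.2 points. It also took 69.8% and 66.5% of the Cfd and Car3-led cells and 70.1% and 66.0% of the Fmo2-led cells, so it did not set Clu/Meox1-type cells apart from those. Of the Il1rl1 and Cxcl5-led cells it took 63.1% (59.4 to 66.8) and 55.8% (38.6 to 72.1). At 3000 UMIs per cell Dpp4+ Mme- reached 45.4 and 48.3 points for the Pi16-type cells, and Ly6a+ Mme+ 25.1 and 17.8 for the Col15a1-type cells.

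Between the libraries, 3 of the 10 genes differed at least 2-fold in fibroblast-like cells, against 8.68% of all genes. Ly6a was 2.27 times and Ly6c1 2.19 times higher in E10-P56 (2 genes, with 4.21% of all genes higher there), and Thy1 2.05 times higher in the adult pulse (1 gene, with 4.47%). Without the Il1rl1 and Cxcl5-led cells all 3 fell below 2-fold, to 1.93, 1.75 and 1.84. Ly6a was nevertheless higher in E10-P56 in each of the 7 subclusters, by 1.76 to 2.27 times, and Ly6c1 by 1.5 to 2.37 times. Ly6a was also 2.41 times higher in tenocyte-like, 4.37 times in VSMC-like and 8.35 times in perineurial-like cells of E10-P56. VSMC-like and perineurial-like cells of the adult pulse had only 21 and 6 UMIs of it. Its ratio was 1.06 in pericyte-like, 1.28 in SMCP-like, 1.49 in endoneurial-like, 1.56 in osteochondral-like and 0.764 in Schwann-like cells. Tenocyte-like Ly6a lay inside the free-RNA range of each library, and the part of free RNA in its ratio was not tested. The fibroblast transcripts Dpt, Clec3b, Mfap5, Pi16 and Dpep1 lay within 0.830 to 1.17 times between the libraries in fibroblast-like cells. Without the Il1rl1 and Cxcl5-led cells Pi16 was at 0.766 times, outside that range. In Col15a1-type cells Pi16 was 2.23 times higher in the adult pulse.

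Of 26 other surface genes used for mesenchymal cells, 25 (E10-P56) and 24 (adult pulse) had the 100 UMIs that the 2-fold rule requires. By library, 1 and 2 of them were at least 2 times above every other population compared, beside 1.8% and 1.29% of all genes. Ly6c2 had too few UMIs to be counted in either library. Only 1 of the counted genes met the rule in both libraries. Endothelial-like cells were not compared. This gene was Tek, the angiopoietin receptor. It was at 80.6 and 129 CPM in fibroblast-like cells and at 22.6 and 38.2 in endoneurial-like cells, the next. Cd248 (endosialin) met this in the adult pulse alone, at 570 CPM, where pericyte-like cells were at 204 CPM; in E10-P56 its ratio to the next population, SMCP-like cells, was 1.97. Ly6e, another relative of Ly6a, was at 310 and 186 CPM in fibroblast-like cells, only 1.35 and 1.05 times the next population. For the fibroblast kinds, 18 and 19 of the 26 had enough UMIs. Among those, Cd248 and Cd200 were at least 2 times higher in Pi16-type cells of both libraries, and Pdgfra, Cspg4, F3 and Icam1 in Col15a1-type cells of both.

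Across the 9 populations of both libraries, 18 points that share libraries and depth, each gene's level, as log2(CPM + 5), was set beside that of 11669 other genes. The closest to Cd34 were Pdgfra (Pearson's r = 0.95) and Gsn (0.92), and Gsn was also close to Cd55 (0.87), after Gfpt2 (0.90). Those closest to Ly6a were Dram1 (0.95) and Cyb561 (0.93), and Cyb561 (0.89) and Engase (0.89) were closest to Ly6c1. For Dpp4 they were Plekho2 (0.87) and Adamts5 (0.85), for Mme Celf2 (0.94) and Sfrp1 (0.90), and for Vcam1 Enpp3 (0.89) and Esr1 (0.88). For Nt5e they were Igf1 (0.87) and Tenm3 (0.85). Nt5e had 0 UMIs in pericyte-like and VSMC-like cells of both libraries, so its profile lies near the 5 CPM added. All these r are the highest among 11669 genes, and no background was taken for such a maximum. Thy1 was closest to Il1r1 (0.94) and Ppp1r18 (0.90), and Eng to Rhoj (0.90) and Sfxn1 (0.85). Within the list, Ly6a and Ly6c1 were the most alike, at 0.88, followed by Cd34 and Cd55 at 0.83.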

How the data were processed

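Processed files of 2 libraries of FACS-purified tdTomato+ cells were used. The deposited values are unnormalized UMI counts of each gene in each barcode, from Chromium 3' libraries that the authors aligned with Cell Ranger to a modified mm10 genome; per the file headers, versions 5.0.0 (E10-P56) and 3.0.2 (adult pulse). The labels give kit v2 or v3, and the methods v3 for muscle taken at P56. All 10 genes have 1 row in each matrix. Of the 28001 identifiers, 27645 are in GENCODE M21, which gave positions on GRCm38.

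Cells with at least 1500 UMIs (the study's limit) and at most 10% mitochondrial UMIs were kept, and doublets stayed in. For clustering, each cell was scaled to 10000 UMIs and logged. From 2000 variable genes, without the 10 genes and 26 other surface genes, 30 principal components and 20 neighbours gave a graph cut at resolution 0.5 by leidenalg 0.10.2 (Python 3.11.15, scipy 1.17.1, scikit-learn 1.9.0, igraph 0.11.9, numpy 2.4.6). A name needed 3 markers of its list with a UMI in 10% of cells and a log2 fold of at least 1, with 5 CPM added. After a first run it was added that 1 of them must be among the 10 leading genes, that no other type may have more there, and that fibroblasts are sought second, against named cells. Names rebuilt so can place cells differently from the study.

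Shares are means over 20 thinnings of each cell to 1500 UMIs, which left out no kept cell. Populations of at least 20 cells were compared. Folds of at least 2 are a rule of size for genes with at least 100 UMIs; no test, p-value or SE was taken from cells. The 10 genes, the lists, the rule for other named genes (the 2 most alike for each, the surface genes past 2-fold in both libraries, gate and free-RNA genes, the best gates) and the tests were chosen with earlier results of these data known; the genes of the one-library case, Cd248, and of the subset comparison were named after their values were seen.

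On simulated cells, 90.6% were given the name they were made with, and the lowest population had 88.1%. Of genes changed 4-fold between libraries in Col15a1-type cells, 183 of 183 were called among 10342 genes, and 0 unchanged genes. Each simulated cell was drawn from the mean profile of its own population or subcluster, without variation inside it and without doublets. Folds were summed over the names the cells were made with, so these calls faced counting error only. Alternatives covered the limits on UMIs and mitochondrial share, doublet scores (scanpy 1.11.5; the top 5% left out), clustering, naming, thinning, the genes behind CPM and the fold.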

Additional observations from a re-analysis of the deposited data

Results flagged for a closer look

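The comparison of Thy1 between fibroblast kinds turned between the libraries, with intervals that do not meet: Pi16-type cells stood at 0.609 times (0.549 to 0.675) the level of Col15a1-type cells for E10-P56, and at 1.84 times (1.75 to 1.93) for the adult pulse. The difference between the libraries was not tested, since each is a single library, and the intervals cover counting error only. Pi16-type cells had 70.1 and 238 CPM in the 2 libraries and Col15a1-type cells 115 and 130. Of the 2 Pi16-type subclusters, the one led by Smpd3 and Krtdap turned, and the one led by Fam167a was above Col15a1-type cells in both. The median depth of the Pi16-type cells was 7677 and 8135 UMIs, and SMCP-like cells, the richest in Thy1 in E10-P56, had 342 and 149 CPM. The part of depth or of free RNA in this was not tested, and labelling time, library and software version cannot be told apart.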

How the results depend on the processing

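No paired analysis was possible because each labelling time has 1 library. Of 20 alternatives, the counts of genes above every other population, 4 in each library, stayed within 1.5 times in 19 (3 to 5) for E10-P56 and 18 (4 to 5) for the adult pulse. They became 0 and 0 when cells were named by their own marker counts, and 2 in the adult pulse at a resolution of 1.0. At 3-fold, the genes differing between Pi16-type and Col15a1-type cells were 3 and 4, and those differing between libraries 0; the latter were also 0 without the Il1rl1 and Cxcl5-led cells, an alternative added after the data were seen. The separation in E10-P56, 49.0 points, was 0.377 with cells named by their own marker counts, 68.4 at 3000 UMIs per cell and 69.0 without thinning, and lay between 36.6 and 62.3 in 18 other alternatives. That in the adult pulse, 38.3 points, was -1.97, 50.3 and 51.1 under the same 3. It was 14.4 at a resolution of 1.0, 47.8 with no mitochondrial limit, 48.1 at a resolution of 0.3, 51.6 with 20 principal components, 49.2 with 30 neighbours, 53.5 with each library clustered alone and 49.6 without endoneurial-like cells (added later); 11 others gave 38.0 to 42.9. The gate was chosen again under each alternative, so these values can belong to different gates. At 3000 UMIs it was Ly6a+ Nt5e- Ly6c1+ in both libraries, while Ly6a+ Nt5e- itself gave 42.1 points in E10-P56. The cause of the shifts was not tested. Alternatives that kept the satellite-led cells, or left out the Cfd and Car3-led or the osteochondral-like cells, were also added later. Small populations limit every separation: 48 endoneurial-like cells give the share of 42.5% an interval of 28.4% to 57.6%.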
